A study of Sus scrofa with 4 samples.

Results

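The maternally expressed imprinted genes described here are UBE3A, NAP1L4, PHLDA2, GNAS, CDKN1C, IGF2R, GRB10, KCNQ1, ASCL2 and OSBPL5, all of which are expressed from the maternal copy, in at least some tissues, in other mammals. They were taken as the rows of the deposited expression table whose name equals a listed symbol, and 9 of the 10 listed symbols had such a row among 35248 rows in all. No row carried the name CDKN1C, but an unnamed row with the Ensembl identifier ENSSSCG00000040461 is described in the table as cyclin dependent kinase inhibitor 1C. Its values are given beside the members, and it is not counted among the 9. The libraries came from parthenogenetic pig embryos at the 4-cell stage, cultured for 48 h in PZM-3 medium after electrical activation of the oocytes and exposure to cytochalasin B. In 2 libraries the embryos had been treated with 50 µM Bobcat339, a small molecule sold as an inhibitor of the TET dioxygenases, and 2 control libraries came from embryos given DMSO. All 4 libraries thus share the parthenogenetic origin, the sources used here do not say how many embryos went into a library. Nor do the labels say that replicates came from separate cultures, so a p-value reflects only the spread among these 4 samples, which may be technical.

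In an imprinted gene, DNA methylation marks laid down in the oocyte or the sperm set which parental copy is silent, and the marked copy need not be the silent one. Genes active from the maternal copy in mouse or human often restrain growth of the embryo or placenta. A parthenogenetic embryo carries no paternal genome, so that both of its copies come from the oocyte. The RNA libraries measured the RNA held in the embryos, without separating RNA stored in the oocyte from RNA made by the embryo. They hold no reading of DNA methylation or of the parental origin of a transcript.

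The libraries held 14681221 and 13568525 counts (Bobcat339) and 14390560 and 13852262 counts (control), and 3 counts, the upper limit that a count of 0 allows, equal 0.204 to 0.221 CPM when scaled to the library total alone, a limit that covers counting error only. All other CPM values are scaled by library totals adjusted with TMM factors. Oocyte and cleavage-stage markers were abundant, with the oocyte growth factor BMP15 at 2873 and 3627 FPKM in Bobcat339 embryos and 3191 and 3467 FPKM in control embryos, where FPKM is the deposited count scaled to row length and library total. Of 10 such markers 8 had a row and all 8 were tested, and their summed level was 10444 and 11918 CPM in Bobcat339 embryos and 10608 and 11635 CPM in control embryos. The control libraries stood further apart than the Bobcat339 libraries, differing by more than 2-fold at 16.2% of tested genes against 8.39% for the Bobcat339 pair. The Bobcat339 pair and the control pair both differed by more than counting noise, with a mean chi-square per row of 11.2 and 41.4.

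NAP1L4 and UBE3A supplied most of the counts of the 9 members, and 6 of the 9 lay below the median FPKM of all named rows. Their joint share was 96.7% and 92.0% of the members' counts in the Bobcat339 libraries and 96.5% and 94.3% in the control libraries. Counts grow with row length, and PHLDA2, a shorter row, had a mean of 9.43 FPKM against 8.46 FPKM for UBE3A. The median member had a mean of 0.262 FPKM over the 4 libraries, against 0.971 FPKM for the median of all named rows. In whole embryos, fewer cells with a transcript and less of it per cell cannot be told apart.

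NAP1L4, a histone chaperone of the nucleosome assembly family, was the highest member in every library. It had 39.5 and 36.8 FPKM in Bobcat339 embryos and 46.8 and 29.8 FPKM in control embryos. Both Bobcat339 libraries lay between the 2 control libraries, with control replicate 1 highest and control replicate 2 lowest. Over the 4 libraries it averaged 38.2 ± 7.03 FPKM (SD, n = 4), above 92.9% of named rows.

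UBE3A, a HECT-type E3 ubiquitin ligase that is imprinted in neurons of mouse and human, had 8.88 and 9.56 FPKM in Bobcat339 embryos and 9.52 and 5.88 FPKM in control embryos. Control replicate 2 was again the lowest library and the other 3 lay close together. NAP1L4 exceeded UBE3A by 3.84 to 5.07 times within each library, so their order did not depend on the library.

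PHLDA2, a pleckstrin homology domain protein whose dose limits placental growth in the mouse, had 3.96 and 19.8 FPKM in Bobcat339 embryos and 7.81 and 6.16 FPKM in control embryos. The Bobcat339 libraries held both the lowest and the highest value, and the controls lay between them. UBE3A stood above PHLDA2 in Bobcat339 replicate 1 and control replicate 1, and below it in the other 2 libraries, so these genes could not be ordered beyond their spread. PHLDA2 exceeded IGF2R, the next member by name, by 12.5 to 59.1 times within each library.

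IGF2R, the cation-independent mannose 6-phosphate receptor that removes IGF2, had 0.318 and 0.335 FPKM in Bobcat339 embryos and 0.177 and 0.417 FPKM in control embryos. KCNQ1, the pore-forming subunit of a voltage-gated potassium channel, had 0.282 and 0.286 FPKM in Bobcat339 embryos and 0.108 and 0.373 FPKM in control embryos. In both genes the Bobcat339 libraries nearly coincided and the controls lay on either side of them, control replicate 1 below and control replicate 2 above. IGF2R was above KCNQ1 by 1.12 to 1.65 times within each library, a gap smaller than the spread of either gene over the libraries.

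GRB10, an adaptor that binds the insulin and IGF1 receptors and dampens their signalling, had 9 and 8 counts in the Bobcat339 libraries and 19 and 6 counts in the control libraries. Control replicate 1 was the highest and control replicate 2 the lowest, which is the order seen in NAP1L4 and the reverse of that in IGF2R and KCNQ1. It was at 0.0997 and 0.0959 FPKM in Bobcat339 embryos and 0.215 and 0.0704 FPKM in control embryos, and in control replicate 1 alone it lay above IGF2R and KCNQ1. OSBPL5, an oxysterol-binding protein homologue that moves lipids between membranes, had 6 and 2 counts in the Bobcat339 libraries and 7 and 3 in the control libraries, and the groups overlapped. ASCL2, a basic helix-loop-helix factor needed for trophoblast development in the mouse, had 0 counts in all 4 libraries, which allows up to 0.204 to 0.221 CPM of the library total in each.

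The named row of GNAS, the gene of the stimulatory G protein alpha subunit, had 1 and 0 counts in the Bobcat339 libraries and 3 and 1 counts in the control libraries. A second row, unnamed in the table but likewise described as the GNAS complex locus (ENSSSCG00000033041), contains the whole span of the named row, 56360 bases, on the same strand. That row had 41 and 56 counts in the Bobcat339 libraries and 37 and 56 in the control libraries, so that replicate 1 was low and replicate 2 high in both groups. With both rows added, GNAS was at a mean of 0.626 FPKM against 0.0105 FPKM for the named row alone, which would lift it from the place below OSBPL5 to that above IGF2R. The sources used here do not say how reads common to both rows were assigned, and the low count of the named row is therefore not a measure of the gene.

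CDKN1C encodes p57, an inhibitor of cyclin-dependent kinases. Its unnamed row had 23 and 57 counts in the Bobcat339 libraries and 12 and 18 counts in the control libraries. These correspond to 0.592 and 1.59 FPKM in Bobcat339 embryos and 0.315 and 0.491 FPKM in control embryos, between PHLDA2 and IGF2R in each library. Both Bobcat339 libraries were above both controls, and Bobcat339 replicate 2 stood furthest up, at 2.65 times Bobcat339 replicate 1.

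**Figure D1:**
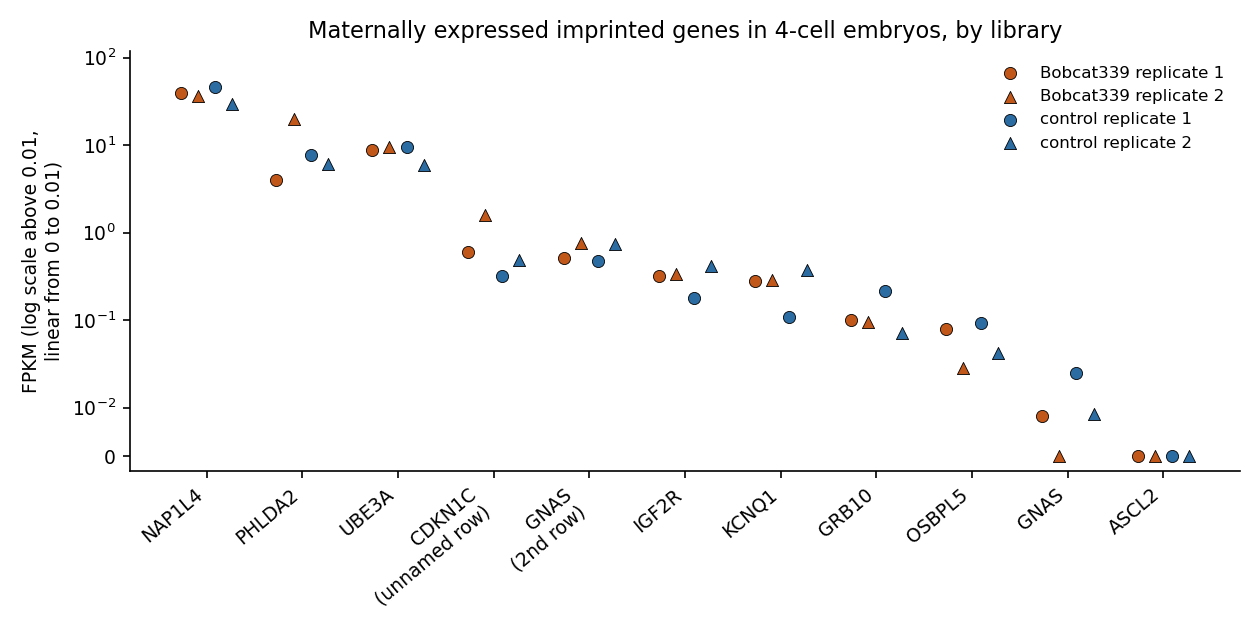
Deposited FPKM of the 9 members found by name, of the unnamed CDKN1C row and of the second GNAS row in each library, on an axis that is logarithmic above 0.01 and linear below; orange points are Bobcat339 libraries and blue points control libraries, circles replicate 1 and triangles replicate 2. NAP1L4 is highest at 29.8 to 46.8 FPKM, PHLDA2 runs from 3.96 to 19.8 FPKM, both within the Bobcat339 pair, and ASCL2 is at 0 in every library.

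These levels depend on the length used. The deposited FPKM imply for each row a length that equals the table's length column at 18616 of the 30007 rows with a count and is shorter at the other 11391. For UBE3A it is 6604 bases in place of 23822, and for NAP1L4 4614 in place of 13010. With the length column, NAP1L4 averaged 13.6 and UBE3A 2.35 on the same scale, while PHLDA2, of 774 bases in both, stayed at 9.43. PHLDA2 would then stand above UBE3A in every library, and above NAP1L4 in Bobcat339 replicate 2, where PHLDA2 was at 19.8 and NAP1L4 at 13.04, while NAP1L4 would remain highest in the mean and in the other libraries.

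Between Bobcat339 and control embryos, none of the members passed the test. Of the 9 members 5 (NAP1L4, UBE3A, PHLDA2, IGF2R and KCNQ1) had enough counts to be tested, and 4 (GRB10, OSBPL5, GNAS and ASCL2) did not. In edgeR's quasi-likelihood test with Benjamini-Hochberg adjustment over all 18481 genes, 0 of the 5 were called at an adjusted p of 0.05, against 0% of all genes tested, and none had an unadjusted p under 0.05, against 4% of all genes. DESeq2 called 5 genes in the whole table (0.0167%) and limma-voom 0, and 0 of the 5 members were called by either. Without control replicate 1 edgeR called 2.92% of all tested genes and without control replicate 2 it called 2.47%, again with 0 members. Of the 5 tested members 0 had groups that did not overlap, against 29.3% of all tested genes. Their median log2 fold change, Bobcat339 over control, was 0.23 with 4 above 0 and 1 below, beside a median of −0.02 over all tested genes. With 2 libraries against 2, an exact two-sided permutation test of a single value could not go below p = 0.333.

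NAP1L4 averaged 38.1 ± 1.90 FPKM under Bobcat339 and 38.3 ± 12.0 FPKM in controls (SD, n = 2 each), from 2673 and 2302 counts under Bobcat339 and 3108 and 1904 counts in controls. The log2 fold change was −0.04 (SE 0.28, 95% interval −0.64 to 0.56, edgeR adjusted p = 0.999), and it was 0.36 without control replicate 1 and −0.32 without control replicate 2. The SD of the controls exceeded that of the Bobcat339 pair, and the difference between the means was smaller than either. UBE3A had 861 and 857 counts in the Bobcat339 libraries and 905 and 538 in the control libraries. Its fitted difference was 0.23 on the log2 scale (SE 0.32, 95% interval −0.44 to 0.90), with an edgeR adjusted p of 0.999. Without control replicate 1 its log2 fold change was 0.65 (edgeR adjusted p = 0.133), and without control replicate 2 it was −0.07. In both genes the control pair spanned about the same ratio, control replicate 1 being 1.63 times control replicate 2 for NAP1L4 and 1.68 times for UBE3A.

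PHLDA2 had 45 and 208 counts under Bobcat339 and 87 and 66 in controls, or 9.11 ± 8.55 CPM under Bobcat339 and 5.48 ± 1.07 CPM in controls (SD, n = 2 each). The fitted log2 difference of 0.73 (SE 0.53, 95% interval −0.39 to 1.85, edgeR adjusted p = 0.999) rested on Bobcat339 replicate 2, since it was −0.79 without that library. Without Bobcat339 replicate 1 it was 1.46, and with limma-voom 0.31. The Bobcat339 replicates differed by 4.94-fold, and 1.46% of all tested genes had Bobcat339 replicates at least as far apart. Among markers of other cells, the summed level of 9 trophectoderm and placenta genes was 22.5 and 28.3 CPM in Bobcat339 embryos and 21.0 and 21.98 CPM in control embryos. For 14 cumulus and granulosa cell genes it was 114 and 153 CPM under Bobcat339 and 121 and 134 CPM in controls, and for 6 blood and immune cell genes 10.97 and 15.2 CPM under Bobcat339 and 11.3 and 13.4 CPM in controls. Bobcat339 replicate 2 was the highest library in all 3 sums. It was also the highest in the oocyte and cleavage-stage sum, at 11918 CPM against 10444 to 11635 CPM in the other libraries. AMH was the one cumulus and granulosa gene at 0 counts in all libraries, but only 7 of the 14 had enough counts to be tested. The median of the 14 was 0.0906 FPKM, and VIM and VCAN were the highest. No trophectoderm gene was at 0 in all libraries, and the median of the 9 was 0.426 FPKM. The part of such other cells in the PHLDA2 value was not tested.

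IGF2R had 42 and 41 counts under Bobcat339 and 23 and 52 in controls. The fitted difference was 0.12 on the log2 scale (SE 0.50, 95% interval −0.94 to 1.19), with an edgeR adjusted p of 0.999. It was −0.35 without control replicate 1, 0.85 without control replicate 2 and 0.23 with limma-voom. KCNQ1 had 16 and 15 counts under Bobcat339 and 6 and 20 in controls. Its fitted difference was 0.23 on the log2 scale (SE 0.71, 95% interval −1.27 to 1.72), with an edgeR adjusted p of 0.999. It was −0.39 without control replicate 1, 1.36 without control replicate 2 and 0.45 with limma-voom. The sign of the difference in both genes thus turned on which control library was kept. The interval of KCNQ1 spans changes of more than 2-fold either way, and that of IGF2R spans a rise of more than 2-fold.

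The unnamed CDKN1C row averaged 2.86 ± 1.83 CPM under Bobcat339 and 1.07 ± 0.303 CPM in controls (SD, n = 2 each). Its log2 fold change was 1.40 (SE 0.60, 95% interval 0.13 to 2.67, unadjusted p = 0.0325, edgeR adjusted p = 0.999), and it did not pass. With a library left out it ran from 0.58 without Bobcat339 replicate 2 to 1.94 without Bobcat339 replicate 1. Since both Bobcat339 libraries lay above both controls, leaving out a library could hardly turn the sign, so this is no separate support. For the second GNAS row the fitted difference was 0.04 on the log2 scale (SE 0.46, 95% interval −0.93 to 1.01), with an edgeR adjusted p of 0.999.

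**Figure D2:**
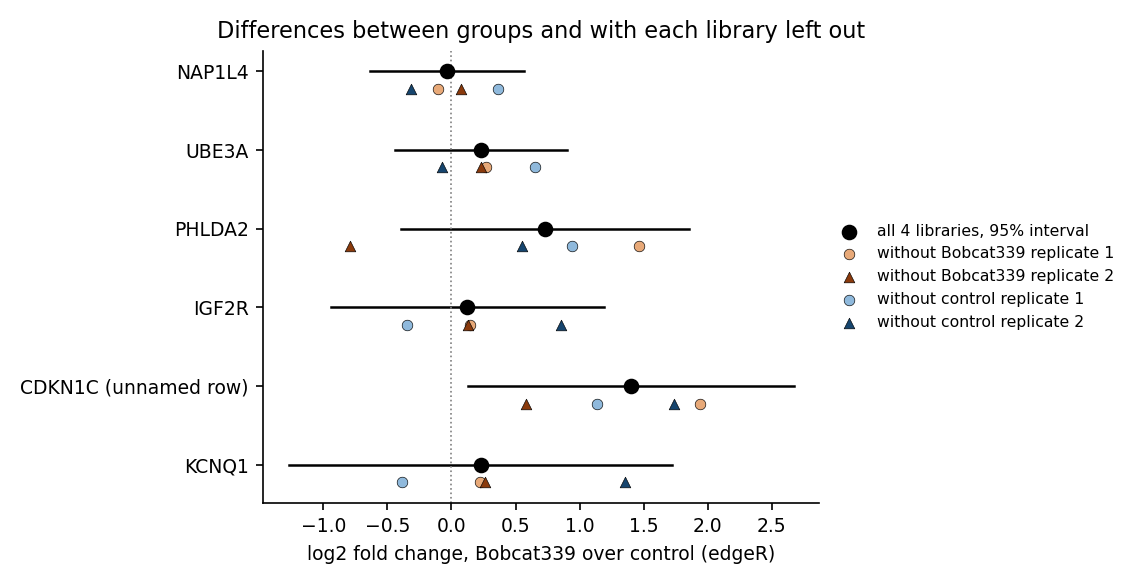
Fitted log2 fold changes, Bobcat339 over control, of the 5 tested members and the unnamed CDKN1C row, as black points with 95% intervals, and the same values with each library left out as coloured points below. The intervals of the 5 members cross 0, PHLDA2 turns to −0.79 without Bobcat339 replicate 2, and IGF2R and KCNQ1 turn below 0 without control replicate 1.

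The spread between replicates took a different form in different members. In 4 of the 5 tested members the control pair lay wider apart than the Bobcat339 pair, as in 67.8% of all tested genes, and PHLDA2 was the exception. Control replicate 2 was at 0.612 times control replicate 1 for NAP1L4 and 0.594 times for UBE3A, but at 2.26 times for IGF2R and 3.33 times for KCNQ1. Control replicates as far apart as those of KCNQ1 were found at 3.88% of all tested genes, where counts of 6 and 20 carry a large counting error of their own, and as far apart as those of NAP1L4 at 34.5%.

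**Figure D3:**
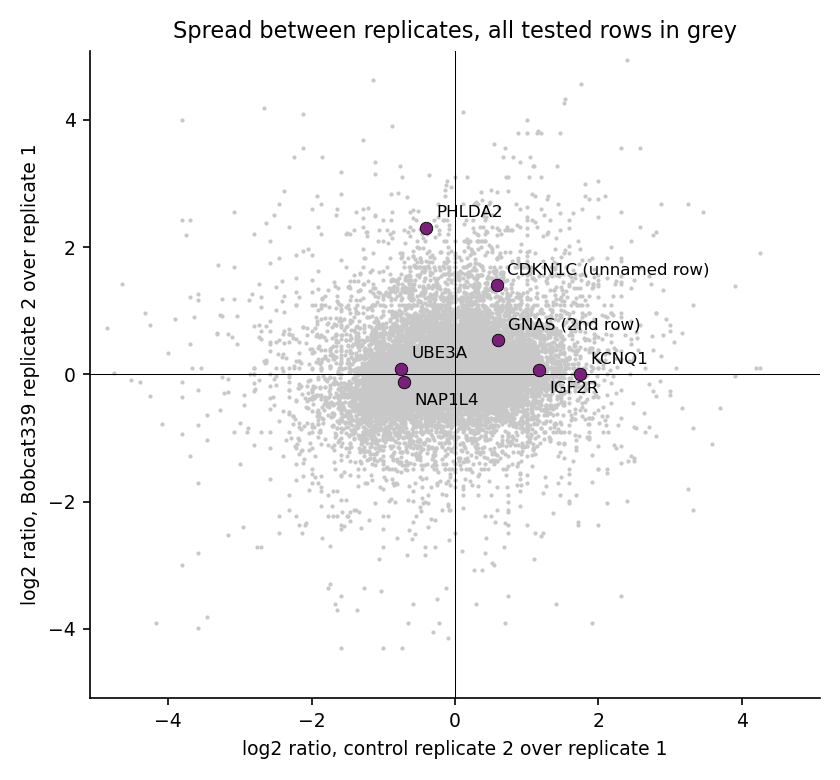
Log2 ratio of replicate 2 over replicate 1 within the Bobcat339 pair (vertical) against the control pair (horizontal) for the tested rows with a count in every library (grey) and for the 5 tested members, the CDKN1C row and the second GNAS row (purple). PHLDA2 lies high on the Bobcat339 axis at 4.94-fold, KCNQ1 far right on the control axis at 3.33-fold, and UBE3A and NAP1L4 left of 0.

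By position, 5 of the 9 members lie on chromosome 2 within 727 kb, and the unnamed CDKN1C row lies among them. The deposited coordinates overlapped the Sscrofa11.1 RefSeq gene of the same name for all 9 members and are given on that build. From the ASCL2 end the order is ASCL2 (1558459 to 1560112, minus strand), KCNQ1 (1675304 to 1989503, plus strand), the CDKN1C row (2018910 to 2022082, minus strand), PHLDA2 (2057680 to 2058694, minus strand), NAP1L4 (2067870 to 2117523, minus strand) and OSBPL5 (2200244 to 2285854, minus strand). UBE3A (141887132 to 141986547, plus strand) and IGF2R (7368103 to 7472548, minus strand) are on chromosome 1, GRB10 (136580048 to 136742139, minus strand) on chromosome 9 and GNAS (58998981 to 59055340, plus strand) on chromosome 17. In human and mouse the members on pig chromosome 2 likewise form a cluster, which is governed by a maternally methylated control region within KCNQ1.

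Neighbouring genes in this interval differed widely in level, and its counts were concentrated in NAP1L4. Of 22 rows between and including ASCL2 and OSBPL5, 5 had 0 counts in all libraries and 8 were tested, and NAP1L4 held 77.0% of all counts. CARS, the cysteinyl-tRNA synthetase gene beside NAP1L4, was the next highest row in CPM, at 13.2 and 8.53 FPKM in Bobcat339 embryos and 16.8 and 8.29 FPKM in control embryos. In CARS replicate 1 was above replicate 2 in both groups, and the groups overlapped. The tetraspanin gene CD81 had 1.34 and 2.28 FPKM in Bobcat339 embryos and 1.76 and 1.28 FPKM in control embryos, again with overlap. TSSC4 had 12 and 8 counts in the Bobcat339 libraries and 6 and 8 in the control libraries, and the transporter SLC22A18 had 4 and 6 in the Bobcat339 libraries and 11 and 6 in the control libraries. TSPAN32 had 1 count in control replicate 2 and none in the other libraries, and the taste-cell channel TRPM5 had none in any. Rows with hardly a count thus lay on either side of CD81 and TSSC4.

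Of the 8 tested rows of the interval 0 were called, and Bobcat339 replicate 2 was the highest library in 5, against 22.3% of all tested genes. These 5 were CD81, the CDKN1C row, PHLDA2 and a pair of unannotated loci between CARS and OSBPL5, XLOC_017669 (2164364 to 2194067) and XLOC_017670 (2168896 to 2171527), both on the minus strand and overlapping each other. The loci were singled out after their values were seen. XLOC_017670 lies wholly within XLOC_017669, so the 8 rows are not independent, and the 5 were not tested against the share of all genes. XLOC_017669 had 58 and 215 counts in the Bobcat339 libraries and 87 and 64 in the control libraries, close to the 45 and 208 against 87 and 66 of PHLDA2. XLOC_017670 had 21 and 52 counts in the Bobcat339 libraries and 13 and 10 in the control libraries, with both Bobcat339 libraries above both controls. Its log2 fold change was 1.65 (SE 0.63, edgeR adjusted p = 0.999), and 0.84 without Bobcat339 replicate 2. That of XLOC_017669 was 0.86 (SE 0.50, edgeR adjusted p = 0.999), and −0.40 without Bobcat339 replicate 2. Groups that did not overlap were found at 2 of the 8 rows, the CDKN1C row and XLOC_017670, beside 29.3% of all tested genes.

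**Figure D4:**
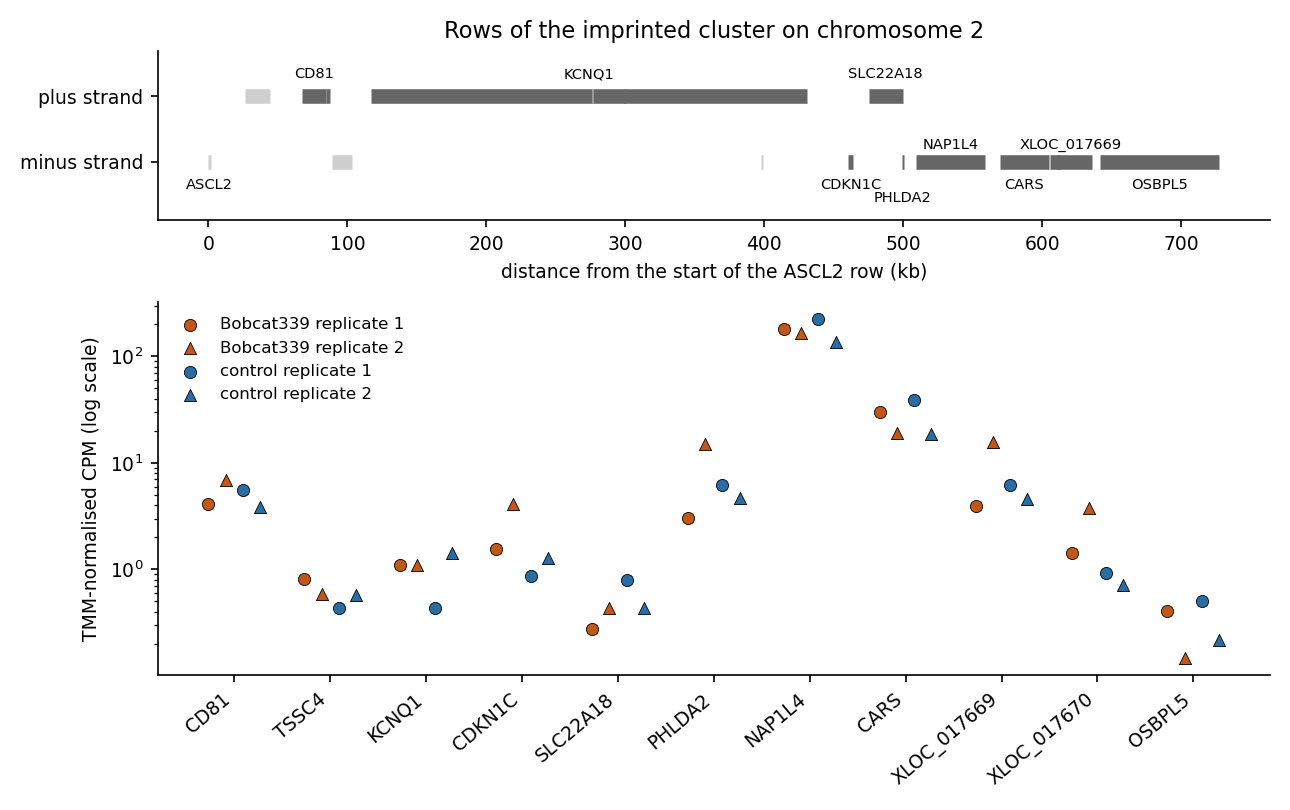
Rows of the chromosome 2 interval: the upper panel draws each row to scale by its distance from the start of the ASCL2 row, dark where it held at least 8 counts over the 4 libraries, and the lower panel gives the TMM-normalised CPM of the dark rows in chromosomal order, without rows named by an Rfam number, on a log scale. NAP1L4 stands highest, and the triangle of Bobcat339 replicate 2 is uppermost at CD81, CDKN1C, PHLDA2 and both XLOC loci.

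Several members overlap other rows of the table, and how reads common to 2 rows were assigned is not stated. For rows on opposite strands, the strand setting is not stated either. PHLDA2 overlaps SLC22A18 on the opposite strand by 332 bases. Both GNAS rows overlap an opposite-strand row by 6996 bases, which had 0 counts in every library. The second GNAS row also contains Rfam rows on its own strand, with at most 5 counts in any library. NAP1L4 contains 2 rows named RF00430, with at most 4 counts in any library, and GRB10 contains 1 Rfam row with 0 counts. KCNQ1 contains 4 Rfam rows, of which RF01950 had 2 and 4 counts in the Bobcat339 libraries and 0 and 2 in the control libraries and the others none, and an opposite-strand row with 0 and 1 counts in the Bobcat339 libraries and 0 and 1 in the control libraries. The counts of the rows overlapping NAP1L4 and PHLDA2 were small beside those of the 2 genes.

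Genes related to the members, such as partners, family members, other imprinted genes and imprint factors, were taken from 11 lists. Over these lists 129 distinct rows were tested and 0 were called by edgeR at an adjusted p of 0.05, with 7 of the 129 at an unadjusted p under 0.05, near the 4% of all tested genes, and their median log2 fold change was 0.06 beside −0.02 over all tested genes. Since none passed, the 2 members of each list with the highest level are named.

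Imprinted genes outside the members were measured in the same libraries. Of 17 genes with a row on the list of paternally expressed genes 11 were tested, with a median log2 fold change of 0.09. MEST, a hydrolase-fold protein expressed from the paternal copy in mouse and human, had 21.8 and 24.0 FPKM in Bobcat339 embryos and 18.8 and 21.9 FPKM in control embryos. Its RNA was detected in embryos that lack a paternal genome, and whether it was stored in the oocyte or made by the embryo was not tested. The paraoxonase PON2, which the list holds although mouse Pon2 is reported as preferentially maternal, had 11.7 and 14.9 FPKM in Bobcat339 embryos and 16.4 and 6.29 FPKM in control embryos. NAP1L5, an intronless relative of NAP1L4, had 0 counts in all 4 libraries. Of 12 other maternally expressed genes with a row 6 were tested, with a median of 0.28, 5 above 0 and 1 below. Highest were the homeobox gene DLX5 (23.7 and 47.1 FPKM in Bobcat339 embryos, 30.5 and 24.5 FPKM in control embryos) and the sialic acid O-acetyltransferase CASD1 (20.7 and 21.2 FPKM in Bobcat339 embryos, 11.5 and 18.1 FPKM in control embryos). The 1 below 0 was DHCR7, named after its values were seen. It had 3 and 4 counts in the Bobcat339 libraries and 18 and 19 in the control libraries. Its fitted log2 difference was −2.38 (95% interval −4.03 to −0.73, edgeR unadjusted p = 0.0073), and it did not pass, with an edgeR adjusted p of 0.999. H19 and MEG3 had no row by name and were not analysed here.

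Factors that establish or protect imprints ranged widely in level, with a median of 9.92 FPKM over the list. DNMT1, the maintenance DNA methyltransferase, had 290 and 330 FPKM in Bobcat339 embryos and 266 and 417 FPKM in control embryos, and PADI6, a protein of the oocyte cytoplasmic lattices, had 229 and 234 FPKM in Bobcat339 embryos and 306 and 340 FPKM in control embryos. PADI6 had both Bobcat339 libraries below both controls, with a log2 fold change of −0.50 (95% interval −0.99 to −0.01, unadjusted p = 0.0457, edgeR adjusted p = 0.999), and did not pass. Over the 19 tested genes of this list 9 had a log2 fold change above 0 and 10 below, with a median of −0.06.

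Around IGF2R and GRB10, 13 genes of the IGF axis were tested, 10 of them with a log2 fold change above 0 and a median of 0.12. The mRNA-binding proteins IGF2BP3 (164 and 163 FPKM in Bobcat339 embryos, 116 and 168 FPKM in control embryos) and IGF2BP1 (79.8 and 74.8 FPKM in Bobcat339 embryos, 91.9 and 37.4 FPKM in control embryos) were the most abundant. IGF2, the ligand that IGF2R removes, had no row by name. Around GNAS, 19 genes of the cAMP axis were tested with a median of 0.06, led by the inhibitory subunits GNAI3 (72.9 and 66.8 FPKM in Bobcat339 embryos, 67.0 and 54.3 FPKM in control embryos) and GNAI1 (19.7 and 19.4 FPKM in Bobcat339 embryos, 20.8 and 21.0 FPKM in control embryos).

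For UBE3A, 18 ubiquitin-conjugating partners and HECT ligases were tested with a median of −0.03, and the E2 enzymes UBE2D3 (397 and 403 FPKM in Bobcat339 embryos, 300 and 411 FPKM in control embryos) and UBE2D2 (59.0 and 53.8 FPKM in Bobcat339 embryos, 54.4 and 50.4 FPKM in control embryos) were highest. Beside NAP1L4, 14 histone chaperones were tested, 10 of them with a log2 fold change above 0 and a median of 0.09. NPM3 (148 and 171 FPKM in Bobcat339 embryos, 162 and 217 FPKM in control embryos) and NPM1 (114 and 92.2 FPKM in Bobcat339 embryos, 100.2 and 81.9 FPKM in control embryos) led them. Both stood above NAP1L4 in every library.

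With CDKN1C, 13 CDK inhibitors and G1 partners were tested with a median of 0.07. The cyclin CCNE1 had 62.4 and 73.6 FPKM in Bobcat339 embryos and 50.6 and 39.1 FPKM in control embryos, without overlap and with a fitted log2 difference of 0.57 (95% interval −0.01 to 1.15, edgeR adjusted p = 0.999). The related inhibitor CDKN1A had 36.8 and 65.5 FPKM in Bobcat339 embryos and 29.9 and 47.7 FPKM in control embryos, far above the CDKN1C row. Of the oxysterol-binding protein family of OSBPL5 all 11 listed genes were tested, with a median of −0.02, and OSBPL10 (31.2 and 29.3 FPKM in Bobcat339 embryos, 30.7 and 45.3 FPKM in control embryos) and OSBPL9 (24.7 and 27.5 FPKM in Bobcat339 embryos, 26.6 and 46.1 FPKM in control embryos) stood far above OSBPL5 itself.

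Potassium channel genes related to KCNQ1 were low, and 3 of 9 were tested. KCNE1, an accessory subunit that assembles with KCNQ1, had 24 and 8 counts in the Bobcat339 libraries and 17 and 9 in the control libraries, and KCNQ5 had 0.423 and 0.622 FPKM in Bobcat339 embryos and 0.454 and 0.679 FPKM in control embryos. KCNE3, another accessory subunit of KCNQ1 and the third gene tested, is named after its values were seen. It had 44 and 26 counts in the Bobcat339 libraries and 6 and 9 in the control libraries, without overlap. Its fitted difference was 2.17 on the log2 scale (95% interval 0.83 to 3.51, unadjusted p = 0.0033), and it did not pass, with an edgeR adjusted p of 0.875. PHLDA1, a relative of PHLDA2, had 15.0 and 13.6 FPKM in Bobcat339 embryos and 8.75 and 12.99 FPKM in control embryos.

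**Figure D5:**
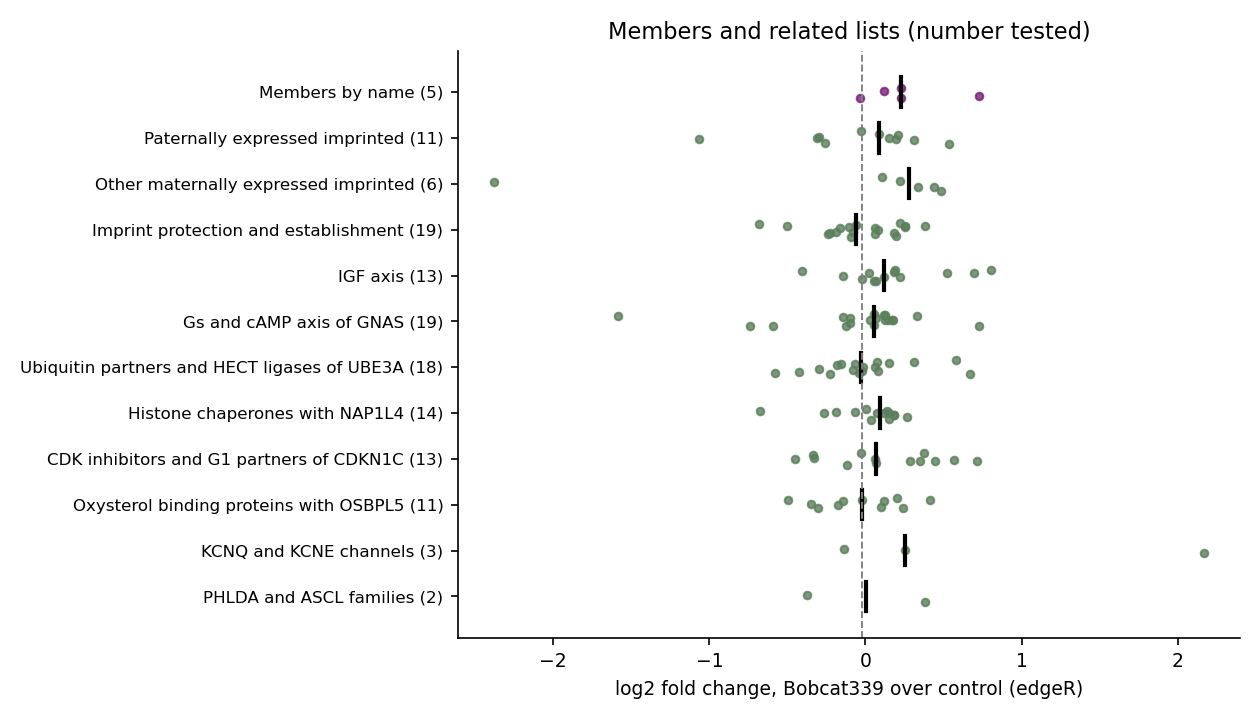
Fitted log2 fold changes, Bobcat339 over control, of the 5 tested members (purple) and of the tested genes of the 11 related lists (green), with the number tested in brackets, a black bar at each median and a dashed line at the median of all tested genes. The list medians lie between −0.06 and 0.28.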

How the data were processed

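Smart-seq2 libraries were made from total RNA taken up in TRIzol, per the labels' protocols. The authors deposited raw read counts per row and FPKM values, per the file headers. Per the submitters' processing notes, the build was Sscrofa10.2 and the tools included HTSeq, HISAT2 2.0.5, Trimmomatic and DESeq2 1.16.1, without roles. Of 14155 names that could be compared, 98.8% overlapped the Sscrofa11.1 RefSeq gene. How the length column was measured and the strand setting are not given in the sources used here. Measurement columns that belong to no sample number 0. List genes were matched by the table's name or, for 1088 unnamed rows, an Ensembl identifier table.

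Differences were tested on the counts of all 4 libraries in R 4.3.3 with edgeR 4.0.16 (TMM, glmQLFit and glmQLFTest, after filterByExpr at min.count 10), and Benjamini-Hochberg adjustment at 0.05. The filter kept 18481 rows with 99.7% of the counts. Printed CPM are TMM-normalised, except the limit for a count of 0, and intervals come from the quasi-likelihood F statistic. The scripts were tested on simulated data. Alternatives were DESeq2 1.42.0, limma-voom (limma 3.58.1), 2 scalings, 2 filters, the replicate block, each library left out, and leaving out the 50 most abundant genes; the CDKN1C row and the second GNAS row were added after the data were seen. All members are named, and of each list the genes that pass or else the 2 with the highest mean FPKM; 1 gene under this rule is not reported here. The members and lists were chosen with earlier results of these data known.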

Additional observations from a re-analysis of the deposited data

How the results depend on the processing

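The count of called members stayed at 0 under every alternative run, with the CDKN1C row added or not. The count of called genes was 5 with DESeq2 and 44 with the replicate block, and between 0 and 586 with a library left out (586 without control replicate 1, 494 without control replicate 2, 0 without either Bobcat339 library), where the lone library of a group is assumed to vary as the other pair does. The remaining alternatives left it at 0, with 325 to 887 genes at an unadjusted p under 0.05. The replicate numbers are shared by name alone (the deviations of same-numbered libraries correlated at 0.159 across genes, over 2 pairs); under the block the log2 fold change was 0.0036 for NAP1L4, 0.39 for PHLDA2 (0.73 without it), 0.21 for IGF2R (0.12) and 0.38 for KCNQ1 (0.23). With limma-voom it was 0.0046 for NAP1L4, 0.31 for PHLDA2, 0.23 for IGF2R and 0.45 for KCNQ1. The cause was not tested. With each library left out the ranges of the log2 fold change were −0.32 to 0.36 for NAP1L4, −0.070 to 0.65 for UBE3A, −0.79 to 1.46 for PHLDA2, −0.35 to 0.85 for IGF2R, −0.39 to 1.36 for KCNQ1, 0.58 to 1.94 for the CDKN1C row, −0.40 to 1.53 for XLOC_017669 and 0.84 to 2.18 for XLOC_017670, with edgeR adjusted p from 0.115 upward. The at-least-5-CPM filter gave no value for IGF2R, KCNQ1, the CDKN1C row or XLOC_017670. Counts of 0 to 20 limit GRB10, OSBPL5, ASCL2, KCNQ1 and the named GNAS row.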
